A study of Mus musculus with 6 samples.

Results

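Glycolysis and the response to low oxygen were followed in sorted osteoblastic cells through 38 named genes, of which 36 were measured among the 19935 genes of the array. The genes came from a list of names grouped by role, and the rule sets no threshold on their values. The list was chosen with earlier results of these data known, so shares set against all genes are descriptions. In it 23 glycolytic members cover glucose uptake, the enzymes from hexokinase to pyruvate kinase, the regulators of phosphofructokinase, and the fate of pyruvate and lactate, and the others cover the hypoxia-inducible factors (HIF), their prolyl hydroxylases and known HIF targets. Gpi1 and Eno1, both glycolytic enzymes, had no probe set with their symbol alone and were not analysed here. The samples were 4 arrays labelled wild type (WT) and 2 labelled Y1 deficient (Y1KO), the latter from mice that lack the Y1 receptor for neuropeptide Y. All mice were male and expressed green fluorescent protein (GFP) from a rat alpha1(I)-collagen promoter fragment of 3.6 kb, in both groups. Stromal cells of femur and tibia marrow were grown for 7 days, and GFP-positive cells were then sorted and their total RNA hybridised. The sources used here give neither strain, age and the kind of deletion nor oxygen and glucose levels, and they do not say whether an array stands for 1 mouse. The p-values therefore reflect only how much these 6 arrays vary, which could be technical variation.

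Glycolysis splits glucose into pyruvate in the cytosol and yields ATP without oxygen, and osteoblasts are known for a high use of glucose that ends in lactate. HIF-1 and HIF-2 are transcription factors whose alpha subunits, made by Hif1a and Epas1, are hydroxylated by prolyl hydroxylases when oxygen is present and then destroyed. When oxygen falls they persist. Between them they switch on many glycolytic genes together with genes of pH control, mitophagy and blood vessels, and not every target answers to both. Much of the control of HIF alpha is on the protein, which an RNA array does not show.

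Values are log2 expression, so that a difference of 1 is a 2-fold ratio on the array's scale, and differences are Y1KO minus WT. Each gene was tested with limma, and a gene was called, and is said to have risen or fallen, at a Benjamini-Hochberg adjusted p under 0.05 over all 19935 genes. Over all genes 12.7% were called, 6.1% higher and 6.64% lower, and 47.9% of the calls were higher, a share that became 60.5% with arrays centred on their medians. Array medians lay between 5.30 and 5.37. The targeted gene, Npy1r, had log2 levels of 3.11, 2.84, 2.78 and 3.00 on the WT arrays and of 2.89 and 2.83 on the Y1KO arrays, at percentile 9.0 of all genes, too dim to check the labels either way. Among marker lists, 7 of 7 genes of proliferation and 4 of 6 of adipocytes fell, 6 of 10 of macrophages rose, and smooth muscle with pericytes gave 7 of 10 falling and 1 rising. By limma 0 of 7 osteoblast, 0 of 7 endothelial, 0 of 4 erythroid and 0 of 7 granulocyte markers were called, with 3, 0, 0 and 2 at an unadjusted p under 0.05. The 7 measured osteoblast markers were bright in both groups, with mean levels of 11.31 to 11.96 on the WT arrays and of 12.14 and 12.24 on the Y1KO arrays. Though not called, 7 of these 7 had a positive difference. In 6 of them both Y1KO arrays lay above every WT array (85.7%, against 17.5% of all genes). Fewer cells of a type and less RNA per cell cannot be told apart in these bulk samples.

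Of the 36 measured genes, 3 rose and 2 fell in Y1KO. The aldolase gene Aldoc, the lactate transporter gene Slc16a1 and the carbonic anhydrase gene Car12 rose, and the HIF-2 alpha gene Epas1 and the vasodilator peptide gene Adm fell. These calls are 13.9% of the members, close to the 12.7% of all genes. The members leaned to higher values without passing the test: 29 of 36 had a positive difference (80.6%, against 51.6% of all genes), and the median difference was 0.22, against 0.01 over all genes. In 11 members both Y1KO arrays lay above every WT array (30.6%, against 17.5% of all genes), in 2 both lay below (5.56%, against 17.3%), and in 23 the groups overlapped. The groups were thus apart for 36.1% of the members, against 34.8% of all genes. Pkm and Higd1a are counted as apart by their brighter probe set, while the groups overlapped by their other probe set. The count of rising members changed with single arrays. Without WT replicate 1 it was 7, with Aldoc, Slc16a1 and Car12 still among them, and it was 2 without WT replicate 3 or WT replicate 4. Leaving out Y1KO replicate 2 leaves a single Y1KO array, and the differences of Aldoc, Slc16a1 and Car12 were then smaller, at 0.85, 0.49 and 1.49. With arrays centred on their medians it was 8, and with unmoderated variance it was 0, where 4 were higher at an unadjusted p under 0.05. The count of falling members was 1 on leaving out either Y1KO array and 0 with unmoderated variance, where 2 were lower at an unadjusted p under 0.05.

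**Figure D1:**
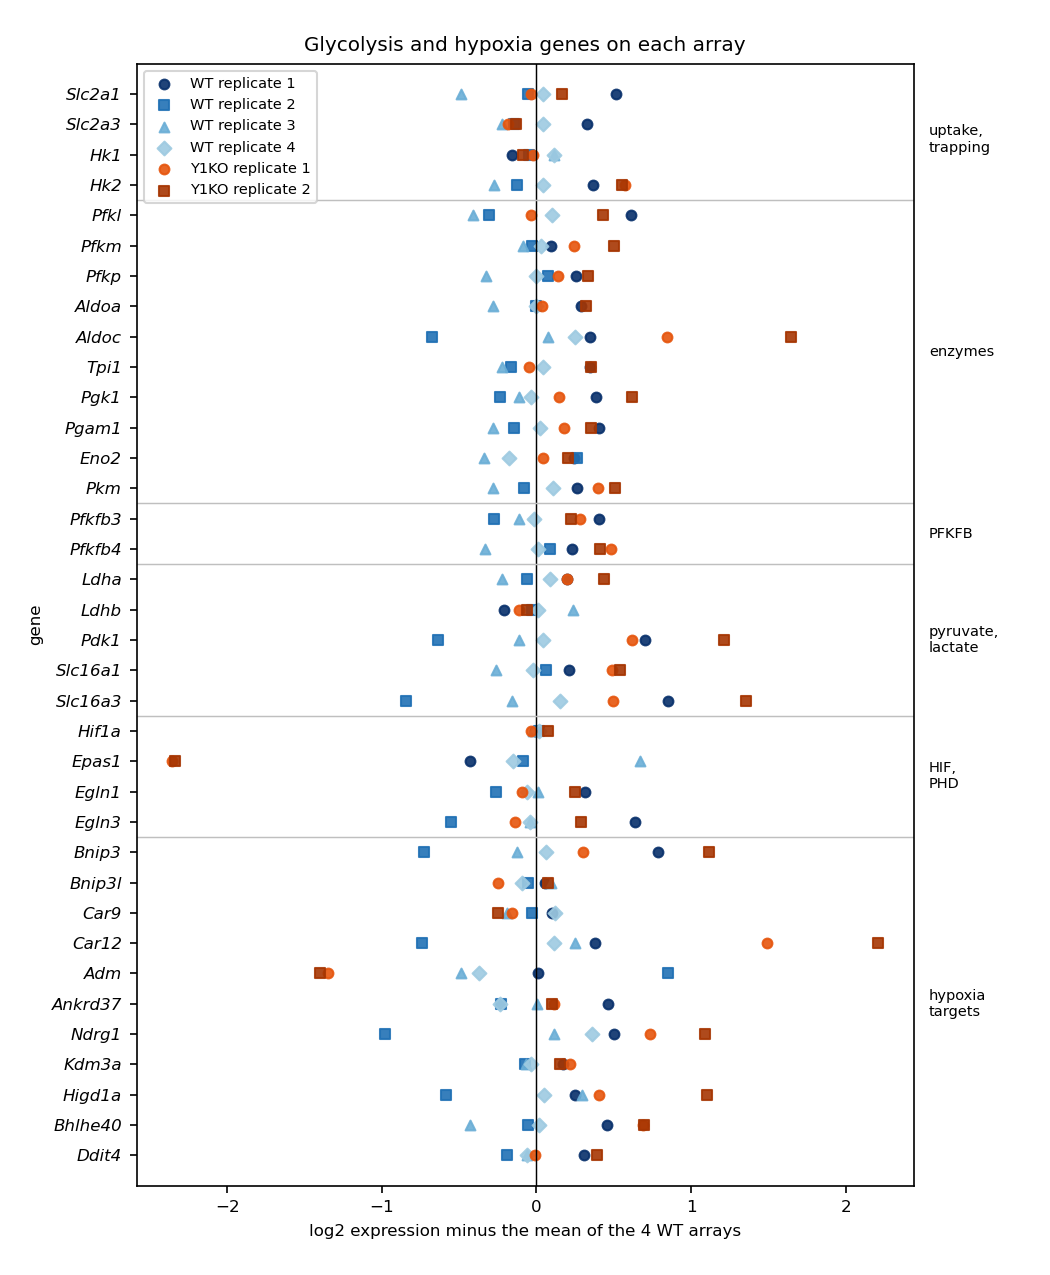
Each row is a measured gene and each point an array, placed by its log2 expression minus the mean of the 4 WT arrays (x axis); rows are grouped by role. WT replicate 1 lies to the right and WT replicate 2 or 3 to the left in most rows, and Epas1 and Adm are the rows whose Y1KO points lie farthest to the left.

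The promoters of 4 of the 5 called members, all but Epas1, are shown because HIF binds DNA at a short core, ACGTG or GCGTG, in the control regions of its targets. Sequences are from RefSeq on GRCm38.p6 and give the 250 bases before the annotated start, 5′ to 3′, with matches to either core on either strand in capitals; a match on the other strand reads CACGT or CACGC.
Adm, chr7:110627407-110627656, plus strand: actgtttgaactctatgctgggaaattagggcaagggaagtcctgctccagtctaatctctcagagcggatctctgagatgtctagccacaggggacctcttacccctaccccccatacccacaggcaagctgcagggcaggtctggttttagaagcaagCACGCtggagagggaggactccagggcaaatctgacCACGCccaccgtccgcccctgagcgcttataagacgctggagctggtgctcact
Aldoc, chr11:78322823-78323072, plus strand: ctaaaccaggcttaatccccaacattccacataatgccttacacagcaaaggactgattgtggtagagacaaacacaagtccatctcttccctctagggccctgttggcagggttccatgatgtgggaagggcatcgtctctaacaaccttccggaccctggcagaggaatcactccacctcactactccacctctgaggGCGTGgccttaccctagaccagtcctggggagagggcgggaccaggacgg
Slc16a1, chr3:104638414-104638663, plus strand: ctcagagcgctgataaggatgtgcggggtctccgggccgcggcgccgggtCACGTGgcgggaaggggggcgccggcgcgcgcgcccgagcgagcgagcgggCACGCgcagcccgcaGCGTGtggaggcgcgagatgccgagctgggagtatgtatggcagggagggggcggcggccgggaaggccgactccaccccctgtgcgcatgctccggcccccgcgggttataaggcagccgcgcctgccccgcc
Car12, chr9:66713436-66713685, plus strand: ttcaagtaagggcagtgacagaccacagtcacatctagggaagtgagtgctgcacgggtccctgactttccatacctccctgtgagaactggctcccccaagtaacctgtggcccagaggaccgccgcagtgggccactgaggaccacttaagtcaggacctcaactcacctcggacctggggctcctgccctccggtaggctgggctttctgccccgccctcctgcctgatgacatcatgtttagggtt
Adm held 2 matches, both GCGTG on the other strand, 90 and 54 bases before the start. Aldoc held 1, GCGTG at 50 bases, and a window at its second annotated start held 1 at 39 bases. Slc16a1 held GCGTG once on each strand and the palindrome CACGTG, which contains ACGTG on both strands. Car12, the member that rose most, held none in this window. A match is a description of these letters and not a site of binding. Of the 36 measured members, 31 had a window, and 28 of the 31 held a match at 1 or more of their starts (90.3%): 18 of 20 glycolytic and 10 of 11 hypoxia members. Among all genes measured on the array with a window the share was 49.9%, and 63.7% among those at or above the median level. Counted by window, it was 77.3% for the measured members and 38.6% for all promoter windows. The list holds known HIF targets by choice, so these shares describe it and are no test.

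Of the HIF alpha genes, Epas1 fell and Hif1a was not called. Epas1 read 8.23, 8.57, 9.33 and 8.51 in WT, in the order of replicates 1 to 4 used throughout, and 6.30 and 6.32 in Y1KO. The Y1KO arrays nearly coincide and lie far below the lowest WT array. The WT mean was 8.66 ± 0.47 (SD, n = 4) and the Y1KO mean 6.31 ± 0.01 (SD, n = 2). Epas1 fell 5.11-fold, with a log2 difference of -2.35 (SE 0.25, 95% interval -2.93 to -1.78, limma adjusted p = 0.00111). The call held when any 1 array was left out, with limma adjusted p from 0.000293 to 0.0251, and was lost without moderation of the variance (adjusted p = 0.0655). Epas1 is also a gene of endothelium and perivascular cells. The endothelial markers had mean levels of 4.23 to 4.44 over the WT arrays and 4.29 and 4.34 in Y1KO, with 7 of 7 below the median of all genes, and Pecam1 and Cdh5 stood at percentiles 27.1 and 35.1. The mean of the smooth muscle and pericyte list was 8.78 to 9.03 in WT and 8.10 and 7.98 in Y1KO. Its genes did not all go the same way: 7 of 10 fell, and Cspg4 rose by 1.16 (limma adjusted p = 0.0123). Rgs5, at -1.31, and Des, at 0.52, were not called. The mean of the adipocyte list was 6.93 to 7.54 in WT and 5.78 and 5.80 in Y1KO. The part of these cells in the result was not tested.

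Hif1a, which encodes the alpha subunit of HIF-1, was level over all arrays. It read 10.42, 10.45, 10.41 and 10.45 in WT and 10.40 and 10.51 in Y1KO, and its SD in WT, 0.02, was at percentile 0.8 of all genes. Hif1a differed by 0.02 (SE 0.08, 95% interval -0.17 to 0.21, limma adjusted p = 0.91), and the sign turned to -0.02 with quantile normalization. A change of Hif1a beyond 0.21 in either direction lies outside this interval. The prolyl hydroxylase genes, themselves induced by HIF, were not called. Egln1 differed by 0.08 (95% interval -0.29 to 0.45). Egln3 differed by 0.07 with a wider interval of -0.56 to 0.70, and it ranged from 4.50 in WT replicate 2 to 5.69 in WT replicate 1. Both Y1KO arrays lay within the WT range for Egln1 and Egln3.

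**Figure D2:**
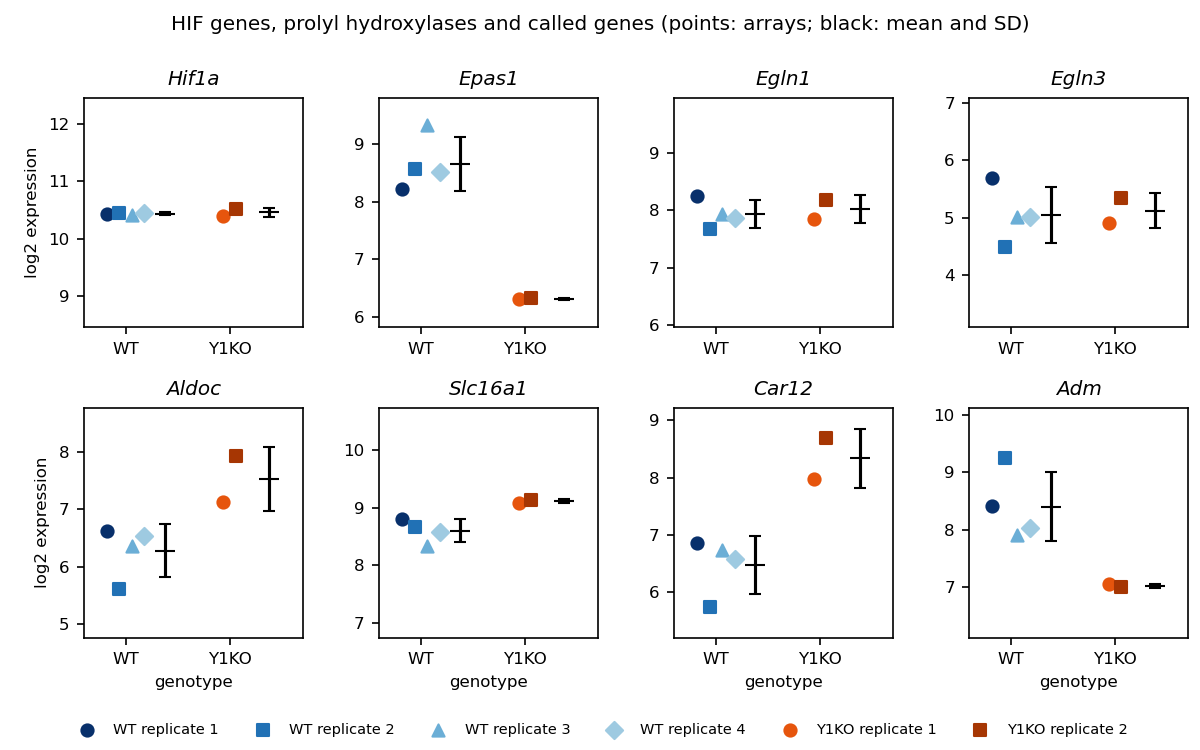
Log2 expression of the HIF alpha genes, the prolyl hydroxylase genes and the other called genes by genotype; each point is an array, black bars are the group mean and SD, and every panel spans 4 log2 units so that spreads can be compared. Y1KO points lie below all WT points for Epas1 and Adm, above them for Aldoc, Slc16a1 and Car12, and among them for Egln1 and Egln3, while Hif1a is flat from 10.40 to 10.51.

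Among the HIF targets, called members went both ways. Car12, a membrane carbonic anhydrase that acts on acid outside the cell, read 6.86, 5.74, 6.73 and 6.59 in WT and 7.97 and 8.69 in Y1KO. Both Y1KO arrays lie above all WT arrays, and WT replicate 2 is the lowest. Car12 rose 3.61-fold, from 6.48 ± 0.50 (SD, n = 4) to 8.33 ± 0.51 (SD, n = 2), a difference of 1.85 (SE 0.31, 95% interval 1.15 to 2.55, limma adjusted p = 0.00601). It was 1.49 without Y1KO replicate 2 (adjusted p = 0.0904), where the call was lost. Adm, which encodes adrenomedullin, a peptide that widens vessels, read 8.41, 9.25, 7.91 and 8.03 in WT and 7.05 and 7.00 in Y1KO. For Adm the order of the WT arrays was unlike that of most members, with WT replicate 2 highest. Its mean was 8.40 ± 0.60 (SD, n = 4) in WT against 7.03 ± 0.03 (SD, n = 2) in Y1KO. Adm fell 2.59-fold, with a log2 difference of -1.37 (SE 0.32, 95% interval -2.10 to -0.65, limma adjusted p = 0.0237). Leaving out Y1KO replicate 1 (adjusted p = 0.133) or 2 (0.176) ended the call of Adm, as did trend and robust options (0.0753).

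The other 9 targets were not called. Bnip3, a mitophagy receptor of the outer mitochondrial membrane, read 9.19, 7.68, 8.28 and 8.47 in WT and 8.71 and 9.52 in Y1KO. WT replicate 1 lies above Y1KO replicate 1, and the WT arrays alone span 1.5, so the difference of 0.71 (SE 0.37, limma adjusted p = 0.293) is smaller than the WT range. Leaving out Y1KO replicate 2 made the difference of Bnip3 0.30, leaving out Y1KO replicate 1 made it 1.11, and leaving out WT replicate 2 made it 0.47. Ndrg1, a stress-response gene widely used as a hypoxia marker, read 8.92, 7.44, 8.53 and 8.78 in WT and 9.15 and 9.51 in Y1KO. Its groups did not overlap, and WT replicate 2 was the lowest array by far: the difference was 0.91 (SE 0.36, limma adjusted p = 0.154), and without WT replicate 2 it was 0.59 and was called (adjusted p = 0.0391). Bhlhe40, a transcriptional repressor that also acts in the circadian clock, read 8.79, 8.28, 7.90 and 8.35 in WT and 9.02 and 9.03 in Y1KO. Its groups also did not overlap, and the difference was 0.70 (SE 0.20, limma adjusted p = 0.0572). It was called without WT replicate 1, with arrays centred on their medians and with either filter on low values. Higd1a, a mitochondrial inner membrane protein, read 7.44, 6.60, 7.48 and 7.24 in WT and 7.59 and 8.29 in Y1KO, with groups apart. Its difference was 0.75 (SE 0.27, limma adjusted p = 0.112), and 0.40 on leaving out Y1KO replicate 2. The other, dimmer probe set of Higd1a differed by 0.31, with groups that overlapped. Among the remaining targets Ddit4, an inhibitor of mTORC1 signalling, differed by 0.19, the histone demethylase gene Kdm3a by 0.19, Ankrd37 by 0.11 and the mitophagy receptor gene Bnip3l by -0.09. Car9, the carbonic anhydrase most often used to mark hypoxic tissue, differed by -0.21 and was dim in both groups, at 4.05 ± 0.15 for WT (SD, n = 4) and 3.85 ± 0.06 for Y1KO (SD, n = 2), near percentile 23.1 of all genes.

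The glycolytic members were higher in Y1KO more often than not, and few passed the test. Of the 21 measured, 2 rose and 0 fell, so that 9.52% were called, below the 12.7% of all genes. A positive difference was found in 18 (85.7%, against 51.6% of all genes), and in 7 both Y1KO arrays lay above all WT arrays (33.3%, against 17.5%). Their median difference was 0.27 and the largest was that of Aldoc. The 15 hypoxia members had a median of 0.11, with 1 rising and 2 falling (20% called, against 12.7%). In 4 of them both Y1KO arrays lay above all WT arrays (26.7%, against 17.5% of all genes) and in 2 below (13.3%, against 17.3%). The hypoxia median was -0.01 without Y1KO replicate 2, and the glycolytic median lay between 0.18 and 0.41 with any 1 array left out. Among the WT arrays alone, the median deviation from the WT mean had an SD of 0.24 for glycolytic members. For hypoxia members this SD was 0.21. No test of the difference between these medians was made.

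At glucose uptake and trapping, 0 of 4 members were called by limma, with 1 at an unadjusted p under 0.05. The glucose transporter gene Slc2a1 read 9.45, 8.88, 8.45 and 8.98 in WT and 8.90 and 9.10 in Y1KO, a difference of 0.06 (95% interval -0.46 to 0.58). Slc2a3, which encodes a transporter of higher affinity, differed by -0.16. Hk2, the inducible hexokinase, read 8.30, 7.81, 7.66 and 7.98 in WT and 8.51 and 8.49 in Y1KO. The Y1KO arrays of Hk2 lie just above WT replicate 1, and the difference was 0.56 (SE 0.16, limma adjusted p = 0.0552). It was called without WT replicate 1, with median-centred arrays, with either filter and with trend and robust options. For Hk1, the hexokinase of most tissues, the reading depends on the probe set. The brighter one, used by rule, gave -0.05, or 0.01 with median-centred arrays. The dimmer one read 8.33, 8.05, 7.99 and 8.06 in WT and 8.55 and 8.75 in Y1KO, a difference of 0.54 (limma adjusted p = 0.0182). The annotation ties Hk1 to 16 further probe sets, all of which also name Rpl17, a ribosomal protein gene, and those were not used. The brighter probe set, at 12.23 ± 0.13 (SD, n = 4) in WT and percentile 99.9 of all genes, is annotated by 1 transcript record alone, and all 16 list that record too. Its value of -0.05 may therefore not measure Hk1.

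Among the enzymes from phosphofructokinase to pyruvate kinase, 10 of 10 measured members had a positive difference, from 0.12 to 1.25, and 1 was called. Aldoc, the aldolase known from brain, read 6.63, 5.61, 6.36 and 6.53 in WT and 7.13 and 7.93 in Y1KO. The Y1KO arrays lie above all WT arrays but 0.80 apart from each other. Aldoc rose 2.37-fold, from 6.28 ± 0.46 (SD, n = 4) to 7.53 ± 0.56 (SD, n = 2), a difference of 1.25 (SE 0.30, 95% interval 0.57 to 1.93, limma adjusted p = 0.0274). The call was lost without Y1KO replicate 2 (0.85, adjusted p = 0.279), without WT replicate 3 (0.0532) and with trend and robust options (0.0703). Aldoa, the aldolase of muscle and many other tissues, differed by 0.18 (95% interval -0.17 to 0.53). Pfkm, the muscle form of phosphofructokinase, was the nearest to a call among the others: it read 8.0, 7.88, 7.82 and 7.94 in WT and 8.15 and 8.41 in Y1KO (difference 0.37, limma adjusted p = 0.0501). The other forms, Pfkl and Pfkp, differed by 0.20 and 0.24. Pkm, the pyruvate kinase gene, differed by 0.45 (limma adjusted p = 0.0811), Pgk1, which makes the pathway's earliest ATP, by 0.38, and the mutase gene Pgam1 by 0.27. Tpi1, the triose isomerase gene, and the neuronal enolase gene Eno2 differed by 0.15 and 0.12. The bifunctional enzyme genes Pfkfb4 and Pfkfb3, whose product fructose 2,6-bisphosphate activates phosphofructokinase, differed by 0.45 and 0.26 and were not called.

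For the 5 genes that turn pyruvate to lactate, move lactate or gate its precursor, 1 rose and the median difference was 0.52. Slc16a1, the monocarboxylate transporter MCT1, read 8.81, 8.66, 8.34 and 8.58 in WT and 9.09 and 9.14 in Y1KO. The Y1KO arrays agree closely and lie above all WT arrays. Slc16a1 rose 1.43-fold, from 8.60 ± 0.20 (SD, n = 4) to 9.12 ± 0.04 (SD, n = 2), a difference of 0.52 (SE 0.13, 95% interval 0.23 to 0.81, limma adjusted p = 0.0315). Its call was lost on leaving out WT replicate 4 (adjusted p = 0.0685) or either Y1KO array (0.145 and 0.218). Slc16a3, the lactate exporter MCT4 and a HIF target, read 9.47, 7.77, 8.46 and 8.77 in WT and 9.11 and 9.97 in Y1KO. WT replicate 1 lies between the Y1KO arrays, and a difference of 0.92 (SE 0.41) was not called (limma adjusted p = 0.209). On leaving out Y1KO replicate 2 it was 0.49. Pdk1, a kinase that inhibits pyruvate dehydrogenase and so limits the conversion of pyruvate to acetyl-CoA in the mitochondrion, read 7.56, 6.22, 6.74 and 6.90 in WT and 7.47 and 8.07 in Y1KO. Its difference was 0.91 (SE 0.32, limma adjusted p = 0.106), and without WT replicate 1 it was 1.15 and was called (adjusted p = 0.0194). Ldha, the lactate dehydrogenase subunit that favours lactate, differed by 0.32 (limma adjusted p = 0.175), and Ldhb, the subunit that favours pyruvate, by -0.09. The groups of Ldha were only just apart: WT replicate 1 and Y1KO replicate 1 both read 12.03.

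**Figure D3:**
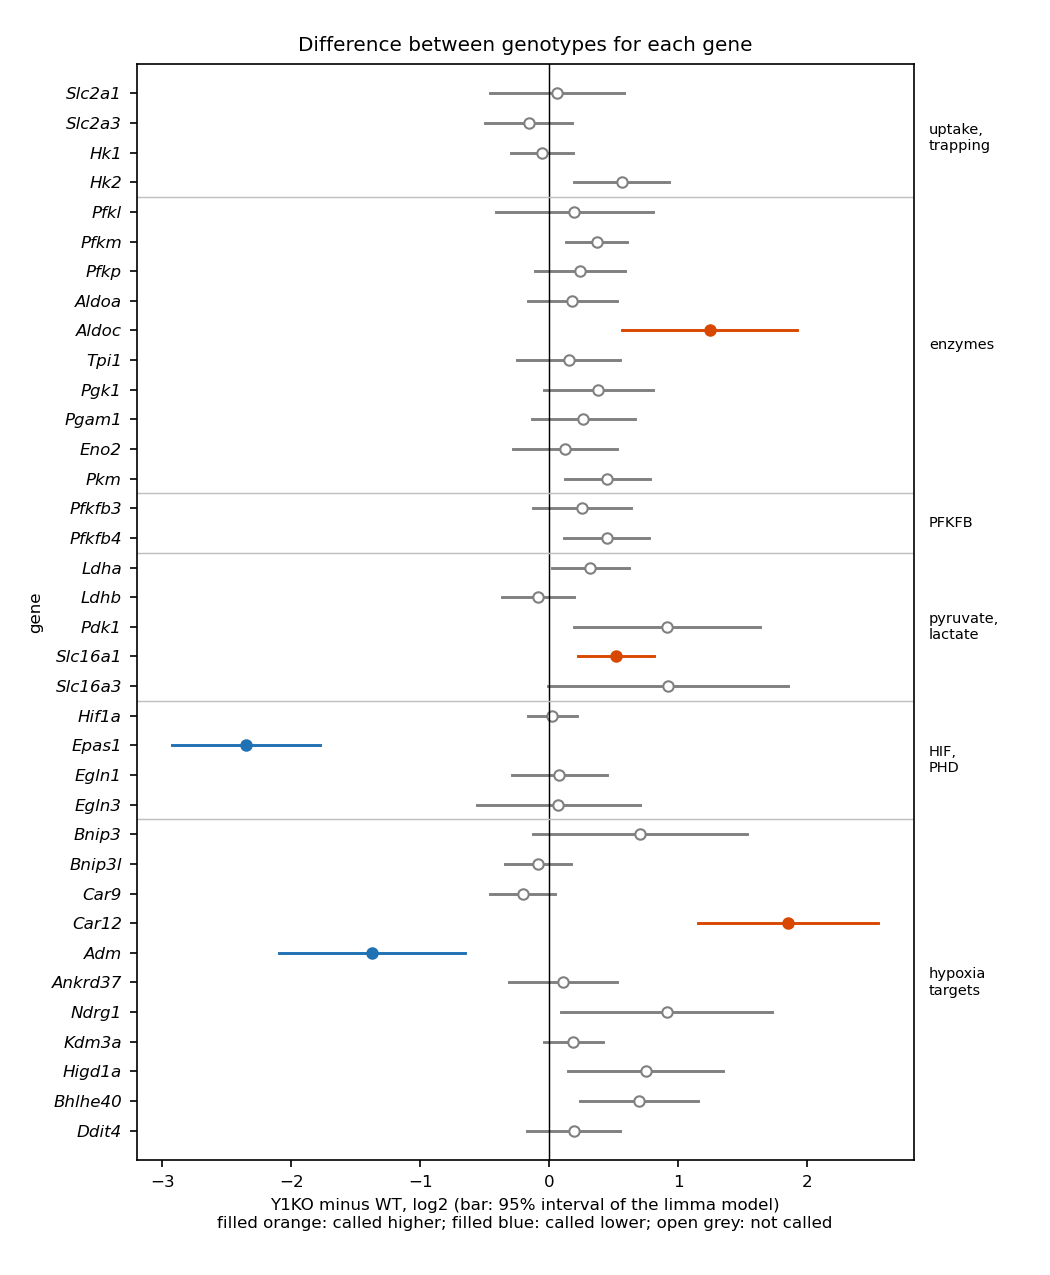
Difference between genotypes (x axis, Y1KO minus WT, log2) for each measured gene with its 95% interval from limma; filled points are called and open points are not. The points of the glycolytic rows cluster between -0.16 and 0.92 apart from Aldoc at 1.25, and the hypoxia rows spread from -2.35 for Epas1 to 1.85 for Car12.

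The members varied widely among the WT arrays themselves. The median SD in WT was 0.27, against 0.13 over all genes, and 20 of the 36 members lay above percentile 90 of all genes by this SD. The spread had a common order. WT replicate 1 was the highest WT array for 27 of 36 members (75%), where it was highest for 23% of all genes. It was highest for 18 of the 21 glycolytic members and for 7 of the 11 targets. WT replicate 3 was the lowest for 14 of the glycolytic members and WT replicate 2 for 6 of the 11 targets, among them Bnip3, Ndrg1 and Car12. Slc16a3, Ndrg1, Bnip3 and Pdk1 spanned 1.7, 1.48, 1.5 and 1.34 over the WT arrays, from WT replicate 2 at the bottom to WT replicate 1 at the top. The Y1KO arrays differed in the same sense: replicate 2 exceeded replicate 1 for 28 of 36 members (77.8%), against 51.8% of all genes.

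Averaged over genes and set against the WT mean, the 10 glycolytic enzymes stood at 0.32, -0.13, -0.23 and 0.03 in WT replicates 1 to 4 and at 0.20 and 0.53 in Y1KO replicates 1 and 2. The 11 targets stood at 0.32, -0.26, -0.06 and -0.01 in WT and at 0.20 and 0.48 in Y1KO. In both groups of genes WT replicate 1 lies above Y1KO replicate 1, so that the genotypes overlap. For the 5 pyruvate and lactate genes WT replicate 1 stood at 0.35 and the Y1KO arrays at 0.34 and 0.70. Over the same arrays the osteoblast marker mean was -0.02, -0.42, 0.23 and 0.21 in WT and 0.42 and 0.52 in Y1KO, and the macrophage marker mean was 0.06, 0.10, 0.01 and -0.17 in WT and 0.23 and 0.62 in Y1KO. The macrophage mean is thus higher in Y1KO replicate 2 than in replicate 1, as are the glycolytic enzymes, and its part in the differences was not tested.

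**Figure D4:**
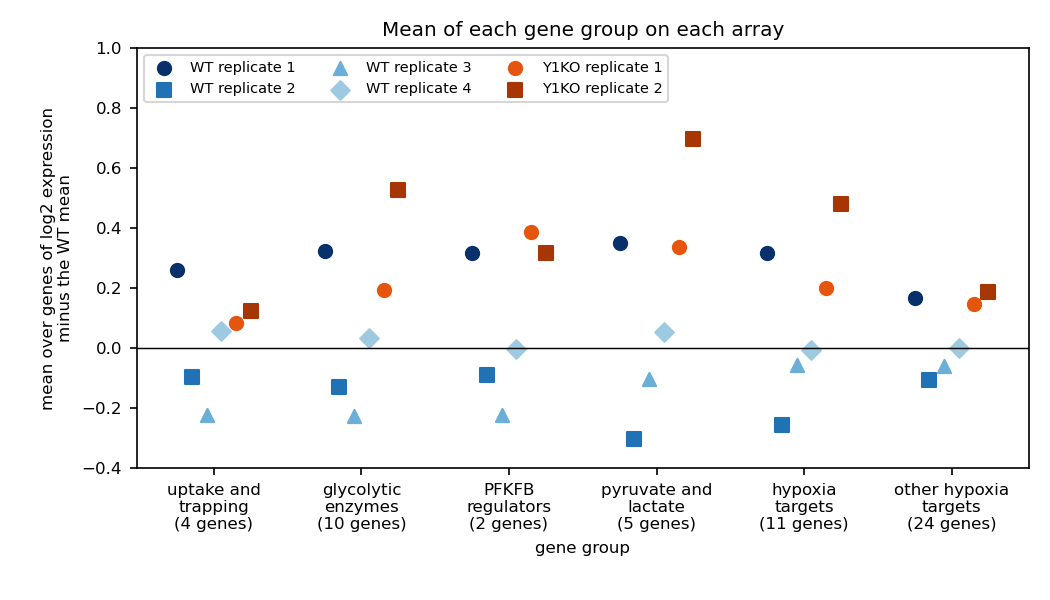
Mean over the genes of a group of log2 expression minus the WT mean (y axis), for each array, with the number of genes under each group. WT replicate 1 stands between 0.17 and 0.35 in every group shown and Y1KO replicate 1 falls below it in all but the PFKFB group.

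Further genes of the same pathways came from lists that hold no member. Of 22 other genes of glycolysis and pyruvate, 2 rose and 1 fell, or 13.6%, near the 12.7% called over all genes. Pdk4, a pyruvate dehydrogenase kinase tied to fatty acid use, read 9.40, 9.79, 9.56 and 9.65 in WT and 7.42 and 7.93 in Y1KO. Its groups lay far apart, and Pdk4 fell, with a difference of -1.92 (SE 0.16, limma adjusted p = 0.000332). Eno3, the muscle enolase gene, rose by 0.48 (limma adjusted p = 0.00871) and the glucose transporter gene Slc2a12 by 0.80 (0.0273). The call of Eno3 was lost without either Y1KO array and that of Slc2a12 without WT replicate 1 or Y1KO replicate 2, while Pdk4 was called with any 1 array left out. Of 6 pentose phosphate genes, 0 were called by limma and 0 had an unadjusted p under 0.05, with a median of -0.06. Of 8 glycogen genes 1 fell (12.5%, near the share of all genes), Ugp2 by 0.37 (limma adjusted p = 0.0342), a call lost when any 1 array was left out.

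Of 9 other HIF pathway genes, 1 rose and 1 fell, where 6.1% of all genes rose and 6.64% fell; with so few genes these counts say little about the list. Cited2, which competes with HIF for its coactivators, read 9.53, 10.16, 9.94 and 9.81 in WT and 8.95 and 8.61 in Y1KO. The groups did not overlap, and Cited2 fell by 1.08 (SE 0.17, limma adjusted p = 0.00503). Siah2, a ubiquitin ligase that targets prolyl hydroxylases, rose by 0.48 (limma adjusted p = 0.0188), a call lost without either Y1KO array, and that of Cited2 was lost without Y1KO replicate 2. Arnt, the beta partner of both HIF alphas, differed by 0.01 and Vhl, which marks hydroxylated HIF alpha for destruction, by -0.11.

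Of 24 other hypoxia targets, 5 rose and 2 fell (29.2% called, against 12.7% of all genes), and in 12 both Y1KO arrays lay above all WT arrays (50%, against 17.5% of all genes). Plod2 and P4ha2, collagen-modifying hydroxylases, rose by 0.79 (limma adjusted p = 0.00834) and 0.75 (0.0278). Hilpda, a lipid droplet protein, rose by 0.54 (0.0181), and Ppp1r3c, which recruits a phosphatase to glycogen, fell by 0.70 (0.0126). Named after their values were seen, P4ha1 and the lipoprotein receptor gene Vldlr rose by 1.20 and 1.48 (limma adjusted p = 0.0373 and 0.0362). Both calls were lost with quantile normalization (0.0597 and 0.0535) and with trend and robust options (0.121 and 0.132). WT replicate 2 was the lowest array for both, and without it the differences were 0.92 and 1.12, still called. Edn1, the vasoconstrictor endothelin, also named after its values were seen, read 6.57, 7.96, 5.69 and 6.09 in WT and 4.83 and 4.12 in Y1KO. WT replicate 2 was its highest array, as for Adm, and Edn1 fell, with a difference of -2.10 (SE 0.53, limma adjusted p = 0.0342). Leaving out Y1KO replicate 2 left 0 rising targets by limma, where 6 targets were higher at an unadjusted p under 0.05, and leaving out Y1KO replicate 1 left a count of 1. The count was 3 on leaving out WT replicate 3 or 4 and 0 with unmoderated variance, where 6 were higher at an unadjusted p under 0.05. For falling targets the count was 0 on leaving out either Y1KO array, with 2 and 3 lower at an unadjusted p under 0.05, and 1 on leaving out WT replicate 1 or 4. Vegfa, the best known HIF target, differed by 0.23 (95% interval -0.02 to 0.48) and was not called.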

How the data were processed

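Expression was measured on 6 single-channel Affymetrix arrays, 4 WT and 2 Y1KO. The authors deposited log2 values for 28815 probe sets. Per the submitters' processing notes the tools were RMA and limma, without versions; the sources used here name no genome build. The deposited log2 values had nearly equal distributions, and no normalization was added. An array has no read depth; the number of arrays limits the precision, and RMA understates differences of dim genes.

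Probe sets were named from the repository's platform annotation: 21780 had 1 symbol, 1605 several and 5430 were not listed. Only the former were used, and the probe set with the highest mean stood for a gene; 8 members had several. Y1KO was compared with WT in limma 3.58.1 (R 4.3.3; lmFit, eBayes, two-sided), with genotype alone in the model, Benjamini-Hochberg adjustment over 19935 genes and a threshold of 0.05. The code was tested on simulated data. Percentiles are among all genes.

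Full statistics were given for members called, for those differing by at least 0.5 and for Hif1a, and at most 4 called genes of smallest p were named from each other list, unless marked. Members and lists were chosen with earlier results of these data known. Alternatives were 2 normalizations, a filter on the mean level at percentile 40 or 60, the mean of probe sets, trend and robust options, no moderation, array weights, a replicate block and each array left out. A second probe set for Hk1 was added after seeing the data. No protein sequences were used here.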

Additional observations from a re-analysis of the deposited data

How the results depend on the processing

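With 4 arrays against 2, calls depend on the variance estimate and on single arrays. The 3 rising members numbered 8 with arrays centred on their medians, 6 with a filter at the 40th percentile and 6 with one at the 60th, where fewer genes were tested, and 0 without moderation of the variance. The 2 falling members numbered 1 with trend and robust options and 0 without moderation. Without moderation 6 of 36 members had an unadjusted p under 0.05, 4 higher and 2 lower, and 344 of all genes were called, against 2541. With any 1 array left out the rising members numbered 0 to 7, the falling members 1 to 2 and all called genes 487 to 2462. The cause of these shifts was not tested. WT and Y1KO share replicate numbers, but the labels give no pairing. Over genes, deviations from the group mean correlated at 0.013 for replicate 1 and -0.204 for replicate 2. With only 2 Y1KO arrays their deviations mirror each other, so these values can neither show nor exclude a pairing. With the replicate block 1 member rose (Car12) and 2 fell. The sign of Hif1a turned to -0.024 with quantile normalization and -0.029 without Y1KO replicate 2, and it lay between -0.029 and 0.078 with any 1 array left out. Hk1 read 0.542 by its other probe set. The median difference of the glycolytic members stayed between 0.169 and 0.41 over 16 alternatives, and that of the hypoxia members between -0.006 and 0.263. Epas1 kept its call in 15 of 16 alternatives, Car12 in 14, Adm in 12, and Aldoc and Slc16a1 in 11 each. Members near the array's floor, such as Car9, can hide a difference.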

Other observations

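Several members have probe sets that read differently. For Pkm the brighter probe set differed by 0.45 with groups that did not overlap and the other by 0.34 with groups that did. For Bnip3 the values were 0.71 and 0.43, both with groups that overlapped. For Higd1a they were 0.75 with groups apart and 0.31 with groups that overlapped. For Bnip3l, Ldhb and Pgam1 the probe sets differed from one another by under 0.06 in their genotype difference. The probe sets of Pgk1 read nearly the same on every array, at 0.38, 0.38 and 0.37, so they are not separate measurements.

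The phosphate-regulating endopeptidase gene Phex, a marker of late osteoblasts, varied more among the WT arrays than any member. It read 7.46, 6.36, 9.30 and 8.92 in WT and 9.10 and 9.98 in Y1KO, and its SD in WT, 1.35, exceeded the largest among members, 0.70 for Slc16a3. WT replicate 2 held the lowest value of Phex, as it did for Slc16a3, Bnip3, Ndrg1, Car12 and Aldoc, while WT replicate 1, the highest array for most glycolytic members, was the next lowest for Phex.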
